A study of Mus musculus with 2 samples.

Results

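The cytosolic ribosomal protein genes were taken as all features of the expression tables whose names begin with Rpl or Rps followed by a number, with Rpsa and the stalk genes Rplp0, Rplp1 and Rplp2 added. Kinases of the Rps6k family and features whose names end in -ps, which are pseudogenes, were left out. The rule found 85 genes of 35522 features, 52 for the large subunit and 33 for the small subunit. The expression values were those of neutrophils sorted from mouse bone marrow as CD11b+, Ly6G high and Ly6C low to negative cells. Both cultures received 10 ng/ml of GM-CSF, a cytokine that sustains myeloid cells. The control culture was given PBS for 3 days, and the other was given 20 µg/ml of tumor exosomes for 3 days. The exosomes were membrane vesicles released by cancer stem cells enriched as spheres (SDCSCs) from CT26, a murine colon carcinoma line, in medium without serum. For its animal work the study names the strain Balb/C and ages of 5 to 8 weeks, and no source used here states whether bone marrow of several mice was pooled. Each condition was 1 library. Replicate error is therefore unknown here, and no difference was tested.

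The cytosolic ribosome is built from a small subunit, which reads the mRNA, and a large subunit, which joins the amino acids. Each subunit is a ribosomal RNA core covered by ribosomal proteins, nearly all of which occur once in each ribosome, and most of them come from 1 working gene each. Their mRNAs usually begin with an unbroken stretch of pyrimidines, the terminal oligopyrimidine tract, through which the mTOR kinase and the protein Larp1 control how strongly they are translated. Neutrophils are short-lived cells that lower ribosome production as they mature in the bone marrow. Copies of ribosomal protein mRNAs have been inserted into the genome many times, which leaves numerous pseudogenes that are nearly identical in sequence.

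The bases around the start of transcription are shown for genes from the ends of the order of exosome to PBS ratios, because the tract just described lies there. Each line gives 15 bases before to 15 bases from the RefSeq start onward (GRCm38.p6), read 5′ to 3′ on the strand of the gene. Capitals mark the longest run of C or T where it reached 6 bases. Where RefSeq gave several starts, the one with the longest run is shown.
Rpl35a: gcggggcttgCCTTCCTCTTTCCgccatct
Rpl36al: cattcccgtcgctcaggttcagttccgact
Rpl22: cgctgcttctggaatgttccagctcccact
Rpl9: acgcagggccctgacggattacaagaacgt
Rpl37: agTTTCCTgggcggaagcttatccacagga
Rpl3l: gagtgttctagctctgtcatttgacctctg
Rpsa: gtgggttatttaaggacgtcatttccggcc
Rps2: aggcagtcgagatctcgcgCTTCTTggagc
Rps18: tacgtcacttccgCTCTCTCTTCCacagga
Rps25: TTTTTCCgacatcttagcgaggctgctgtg
Rps9: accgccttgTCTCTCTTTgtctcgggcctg
Rps27: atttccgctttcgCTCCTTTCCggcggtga

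Rpl35a, Rpl36al and Rpl22 had the highest ratios of the large subunit, and Rpsa, Rps2 and Rps18 those of the small subunit. Rpl9, Rpl37 and Rpl3l, and Rps25, Rps9 and Rps27, came from the low ends. Some genes with lower ratios than Rpl9 or Rps25, such as Rpl17 and Rps14, are not shown. The windows lie at chr16:33056467-33056496 for Rpl35a on the plus strand, chr17:33955651-33955680 for Rps18 on the minus strand, chr7:3704026-3704055 for Rps9 on the plus strand and chr3:90213634-90213663 for Rps27 on the minus strand. The run was 13 bases long in Rpl35a, 11 in Rps18, and 9 in Rps9 and in Rps27, so long runs stood at both ends of the order.

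A RefSeq start was available for 64 of the 85 genes. A run of 6 or more bases, each C or T in any order, lay within the window of at least 1 start in 38 of them (59.4%). Runs of C or T of that length on the opposite strand, which read as A or G on the strand of the gene, lay in 10.9%. Among all 27022 genes with a RefSeq start, expressed here or not, the shares were 32.7% and 36.0%. Among the 7138 expressed genes that encode no ribosomal protein of the rule they were 33.3% and 34.7%. Counted per start instead of per gene, 51.3% of 76 starts of ribosomal protein genes held a run, against 28.5% in those other expressed genes. The large subunit had runs in 23 of 40 genes and the small subunit in 15 of 24. The run was found in 17 of 26 genes that were at least 2-fold higher with exosomes and in 20 of 36 that were not. A run is a description of these letters and was not tested as a control element.

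The values are RPKM, reads per kilobase of exon and scaled to the mapped reads of the sample, which can be compared between genes because they are per length. The depth was estimated from the smallest values at 65.98 M mapped reads (M, mega) in PBS and 79.14 M with exosomes. A ribosomal protein gene compared here had a median of 3971 estimated reads in PBS and 9289 with exosomes, and the smallest number was 70.2, for Rpl26 in PBS. All 11 neutrophil markers were measured in both samples, and all 11 were lower with exosomes. Their summed RPKM was 84589 in PBS and 30462 with exosomes, most of it from S100a8 and S100a9. Of 12 monocyte or macrophage markers 11 were higher with exosomes, with a summed RPKM of 378.39 in PBS and 683.19 with exosomes. The macrophage marker Emr1 went from 20.91 to 151.51 RPKM, and the monocyte marker Ly6c2 from 184.41 to 37.12. The sums in PBS and with exosomes were 108.12 and 66.87 for 5 B cell markers, 58.7 and 8.24 for 6 T cell markers, of which Cd3d alone made 56.44 and 7.02, and 32.7 and 21.1 for 7 dendritic cell markers. They were 10.73 and 17.62 for 6 progenitor markers, 10.71 and 6.52 for 6 eosinophil, basophil or mast cell markers, and 1.55 and 0.115 for 5 erythroid markers. The 8 epithelial or colon carcinoma markers summed to 0.71 and 0.281 RPKM, and Krt8 was listed at 0 in both samples. These shifts accompany every ratio below, and their part in the results was not tested. In whole-culture RNA a change in the number of cells of a type and a change in RNA per cell cannot be told apart.

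The RPKM of ribosomal protein genes was higher with exosomes for most genes of both subunits, and the large subunit had the slightly higher median ratio. A gene was compared where both of its RPKM values reached 0.25, which 48 large and 32 small subunit genes reached, among 9698 genes in all. Of these 80 genes, 73 (91.25%) had a ratio above 1, where 73% of all genes compared did. A ratio of at least 2 was reached by 33 of them (41.25%), against 31.5% of all genes, and a ratio of at least 1.5 by 52, against 47.3% of all genes. None had a ratio of 0.5 or less, against 5.62% of all genes, and the lowest log2 ratio was -0.48. The standard deviation of log2 ratios over genes was 0.58 for ribosomal proteins and 1.06 for all genes.

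The median log2 ratio was 0.95 for the large subunit, a 1.93-fold ratio, and 0.79 for the small subunit, a 1.72-fold ratio. All genes compared had a median of 0.53. The difference between the medians was 0.16, and whether it exceeds replicate error cannot be said with 1 library each. Single genes had a standard deviation of log2 ratios of 0.63 in the large and 0.51 in the small subunit. The large subunit had 22 of 48 genes at 2-fold or more (45.8%) and the small subunit 11 of 32 (34.4%). Ratios below 1 were found for 6 large subunit genes and 1 small subunit gene. The distributions of the subunits overlapped over most of their range. In all, 28 of 48 large subunit genes lay above the small subunit median, and 13 of 32 small subunit genes lay above the large subunit median. When the median of all genes was subtracted, the medians were 0.42 and 0.26 and the counts at 2-fold were 4 and 2. On that scale 7.5% of the ribosomal protein genes were at least 2-fold higher against 16.8% of all genes. The share of all genes at least 2-fold lower was then 13.2%, and 58 of the 80 ribosomal protein genes had a log2 ratio above 0. Of the genes named below, Rpl13a, Rpl41, Rpl22l1, Rpl10, Rps6, Rps23, Rps25, Rps27a, Rps14 and Rps9 turned from above to below 0 on that scale.

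**Figure D1:**
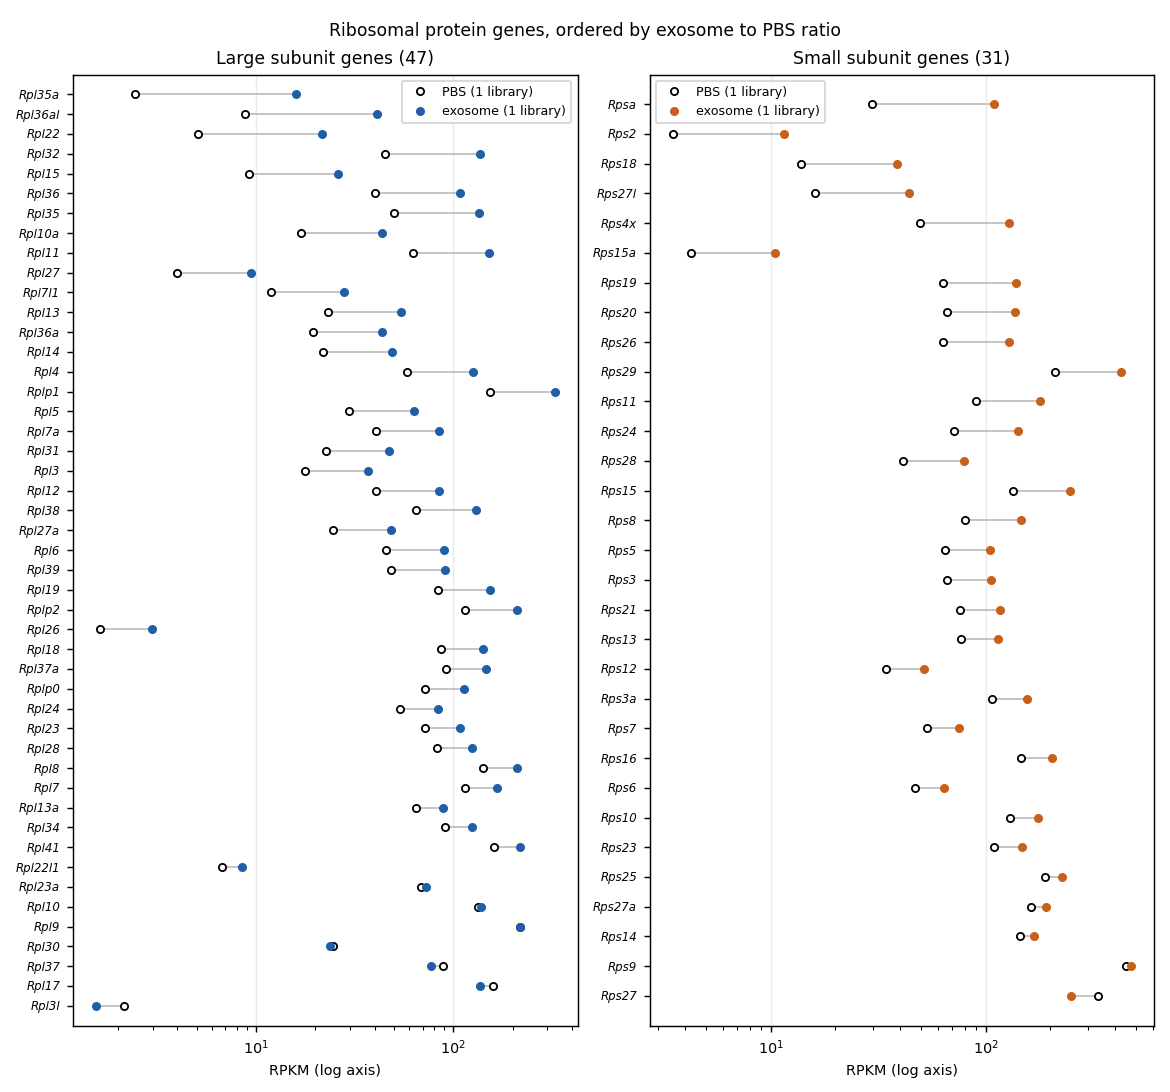
RPKM (log axis) of the ribosomal protein genes compared, for the large subunit (left, 47 genes plotted) and the small subunit (right, 31 genes plotted), ordered by ratio. Open circles are the PBS library and filled circles the exosome library, with 1 library each and no error bar. The filled circle lies to the right in 42 large and 30 small subunit genes of those plotted, and the widest gaps are those of Rpl35a and Rpsa.

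The plot of RPKM by gene shows that the genes with the widest gaps mostly started from low PBS levels, while of the genes above 100 RPKM in PBS only Rplp1 and Rps29 reached 2-fold. In the large subunit Rpl35a, whose human counterpart is mutated in some cases of Diamond-Blackfan anaemia, went from 2.43 to 16.02 RPKM. Its ratio of 6.59 (log2 2.72) had a 95% counting interval of 2.58 to 2.86 on the log2 scale. This exact Clopper-Pearson interval rests on estimated reads and covers counting error only. The gene lies at chr16:33056453-33060189 on the plus strand (GRCm38, GENCODE M21). Rpl36al, an autosomal paralog of the X-linked Rpl36a, went from 8.79 to 40.87 RPKM, and Rpl22, an RNA-binding protein needed for T cell development, from 5.1 to 21.67 RPKM. Their ratios were 4.65 and 4.25. These 3 were the only ribosomal protein genes with a ratio of 4 or more, which 8.52% of all genes reached.

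Rpl32 went from 45.17 to 136.69 RPKM, Rpl15 from 9.23 to 25.9 and Rpl36 from 40.22 to 108.11. All 3 are structural proteins of the large subunit, and their ratios were between 2.69 and 3.03. Rpl32 was the most abundant of them in both samples.

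The lowest ratio of the large subunit belonged to Rpl3l, the paralog of Rpl3 that is used in heart and skeletal muscle. It went from 2.15 to 1.54 RPKM, a log2 ratio of -0.48 with a counting interval of -0.78 to -0.17. Rpl17, which lines the tunnel of the growing peptide, went from 158.15 to 136.05 RPKM, and Rpl37 from 88.28 to 76.85. These 3 intervals lay wholly below 0. Rpl30 was at 24.63 and 23.71 RPKM and Rpl9 at 219.23 and 217.48, and the counting intervals of these 2 genes included a ratio of 1.

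In the small subunit the highest ratio was that of Rpsa, a protein of the mRNA exit side that also occurs as a laminin receptor. It went from 29.68 to 110.11 RPKM, a ratio of 3.71 (log2 1.89, counting interval 1.84 to 1.94), and lies at chr9:120127689-120132369 on the plus strand. Rps2, near the mRNA entry, went from 3.49 to 11.56 RPKM, and Rps18, in the head of the subunit, from 13.85 to 38.58. Rps27l, a paralog of Rps27, went from 16.04 to 43.85 RPKM. The X-linked Rps4x went from 49.78 to 127.96. These 5 genes had ratios from 2.57 to 3.71, and Rps4x and Rpsa passed 100 RPKM with exosomes.

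Rps27 was the single small subunit gene with a lower value in the exosome sample. It went from 334.27 to 250.06 RPKM, a log2 ratio of -0.42 with a counting interval of -0.45 to -0.38. Rps9, the most abundant of the 85 genes in both samples, was at 453.28 RPKM in PBS and 478.18 with exosomes. Rps14, the gene lost in the 5q- syndrome of human bone marrow, was at 144.25 and 167.3 RPKM. Rps27a, which is made as a fusion with ubiquitin, was at 163.04 and 191.38, Rps25 at 189.52 and 228.12, and the decoding-site protein Rps23 at 109.32 and 147.99. All 6 low-ratio genes of the small subunit were above 100 RPKM in PBS.

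Genes of known special roles were spread over the range. Rpl5 and Rpl11, which bind the smallest ribosomal RNA of the large subunit and can block Mdm2, were both over 2-fold higher. Rpl5 went from 29.68 to 62.94 RPKM and Rpl11 from 62.28 to 151.17. Of the stalk, which recruits elongation factors, Rplp1 went from 153.28 to 326.41 RPKM and Rplp2 from 114.27 to 209.4, while Rplp0, their anchor, went from 71.95 to 113.74. Their ratios were 2.13, 1.83 and 1.58, and the 3 counting intervals did not overlap.

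Rpl3, close to the peptidyl transferase centre, went from 17.72 to 37.18 RPKM, while Rpl10, which joins the subunit late in its assembly, was at 133.28 and 138.98. Rpl13a, a protein also known for silencing inflammatory mRNAs in myeloid cells, went from 64.41 to 89.19 RPKM, and the very short Rpl41 from 161.72 to 218.62. In the small subunit Rps3, which lies at the mRNA entry, went from 66.1 to 105.7 RPKM. Rps6, the substrate of the S6 kinases, went from 46.73 to 63.95, and Rps19, the gene most often mutated in Diamond-Blackfan anaemia, from 63.73 to 138.18. Among these 7 genes Rpl3 and Rps19 passed 2-fold, with ratios of 2.10 and 2.17.

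The most abundant genes were in part other ones in each sample. In PBS the 5 highest of the large subunit were Rpl9, Rpl41, Rpl17, Rplp1 and Rpl8, and with exosomes Rplp1, Rpl41, Rpl9, Rpl8 and Rplp2. Rpl8, a protein of the large subunit core, went from 141.84 to 211.08 RPKM. In the small subunit Rps9, Rps27, Rps29, Rps25 and Rps27a led in PBS, and Rps9, Rps29, Rps27, Rps15 and Rps25 with exosomes. Rps29 went from 210.36 to 425.45 RPKM and Rps15 from 133.62 to 246.87. Across the 80 genes the Spearman correlation of PBS with exosome RPKM was 0.91. Of the 1000 most abundant features of a sample, 46 were ribosomal protein genes in PBS and 58 with exosomes.

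Paralog pairs did not move as a block. Rpl22l1, the paralog of Rpl22 whose mRNA Rpl22 can repress, was at 6.7 RPKM in PBS and 8.53 with exosomes, a ratio of 1.27 beside 4.25 for Rpl22. In PBS Rpl22l1 was above Rpl22, and with exosomes it was below. Rpl36a went from 19.4 to 43.77 RPKM, so Rpl36al came close to it with exosomes. Rps27 and Rps27l had ratios of 0.748 and 2.73, in opposite directions, although Rps27 remained the more abundant of the pair by far. Rpl7 went from 114.13 to 166.65 RPKM and Rpl7l1, which acts in ribosome assembly, from 11.91 to 28.03. Rpl39 went from 48.2 to 91.15 RPKM.

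Of the 85 genes, 5 were below the minimum of 0.25 RPKM in at least 1 sample. Rpl10l, a paralog of Rpl10 made in testis, was listed at 0 in PBS and 0.01 with exosomes. Rpl39l, likewise known from testis, was at 0.02 and 0.06, and Rps4y2, an older name of Rps4l, was listed at 0 in both. The other two, Rpl21 and Rpl29, encode core proteins of the ribosome and were at 0.00817 and 0.06 RPKM and at 0.19 and 0.23 RPKM. The genes just inside the minimum were Rpl26, at 1.62 and 2.96 RPKM, and Rpl3l.

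Ratios were higher where the PBS level was lower. The 27 genes of lowest PBS level, from 1.62 to 40.62 RPKM, had a median log2 ratio of 1.23, and 21 of them were at least 2-fold higher. The next 27, from 41.36 to 83.02 RPKM, had a median of 0.92 with 10 at 2-fold. The 26 genes of highest PBS level, from 83.37 to 453.28 RPKM, had a median of 0.45 with 2 at 2-fold and 5 with a ratio below 1. Among all genes compared, in bands of mean RPKM, the share at 2-fold was 31.7% from 0.25 to 1 and 50.2% from 1 to 5 RPKM. It was 34.6% from 5 to 10, 18.4% from 10 to 50, 12.4% from 50 to 200 and 12.8% from 200 RPKM. Between 1 and 200 RPKM the share thus also fell with level among all genes. The Spearman correlation of PBS RPKM with the log2 ratio was -0.63 over 80 genes, -0.56 in the large and -0.72 in the small subunit. PBS RPKM is part of both measures in that correlation. With exosome RPKM, which is also part of the ratio, it was -0.35 over all, -0.25 in the large and -0.52 in the small subunit. The spread of levels was narrower with exosomes. The standard deviation of log2 RPKM over ribosomal protein genes was 1.70 in PBS and 1.48 with exosomes. For all genes compared it was 2.49 and 2.24, so the spread narrowed there too.

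The order of the subunits was not the same at each level. In the lowest PBS class the median log2 ratio was 1.17 for 21 large subunit genes and 1.46 for 6 small subunit genes. In the middle class it was 0.92 for 13 large and 0.91 for 14 small subunit genes. In the highest class it was 0.50 for 14 large and 0.44 for 12 small subunit genes. The large subunit thus had more genes in the lowest class, where ratios were highest, and the small subunit median was the higher of the 2 there.

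**Figure D2:**
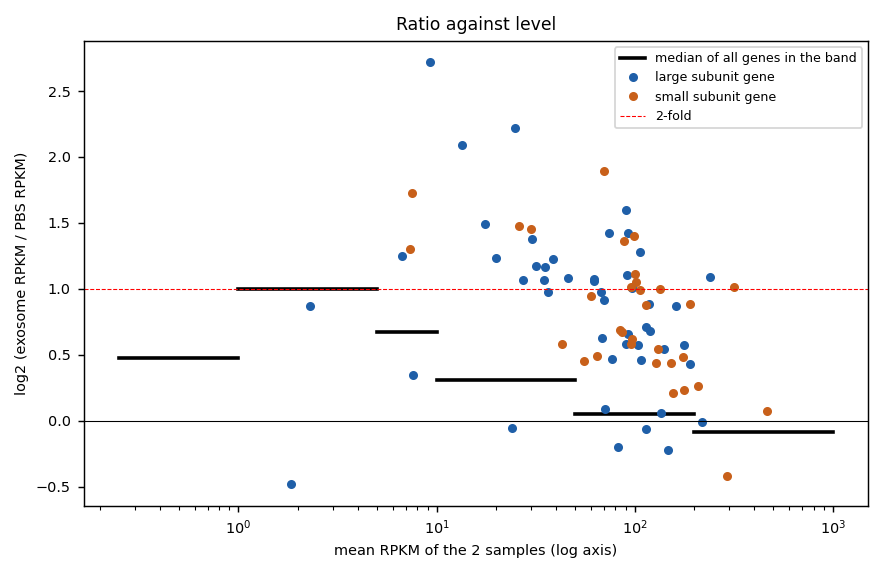
log2 ratio of exosome over PBS RPKM against the mean RPKM of both samples (log axis) for the 48 large and 32 small subunit genes, 1 point a gene. Black bars are the medians of all genes compared in each band of mean RPKM and the dashed line marks 2-fold. In all, 72 of the 80 points lie above the bar of their band, and both points between 1 and 5 RPKM lie below it.

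Genes of like abundance had lower ratios in general, as the plot of ratio against level shows. Between 10 and 50 RPKM the 16 ribosomal protein genes had a median log2 ratio of 1.20 and the 2989 genes of that band 0.31. Between 50 and 200 RPKM 51 ribosomal protein genes had a median of 0.68, and the 888 genes of the band 0.05. In that band 14 ribosomal protein genes (of 51) were at least 2-fold higher, beside 12.4% of all genes there. At 200 RPKM and above, 6 ribosomal protein genes had a median of 0.17 and all 211 genes -0.08. In the band of 1 to 5 RPKM, Rpl26 and Rpl3l had a median of 0.19 where all genes had a median of 1. Relative to the median of its own band a gene lay higher in 41 of 48 cases in the large subunit and 31 of 32 in the small subunit, by a median of 0.76 and 0.64.

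Summed over all 52 genes, large subunit RPKM was 2915 in PBS and 4675 with exosomes, a ratio of 1.60. Over all 33 small subunit genes it was 3187 and 4743, a ratio of 1.49. Ribosomal protein genes of both subunits made up 1.70% of all summed RPKM in PBS and 2.72% with exosomes. The total was 358521 RPKM in PBS and 346885 with exosomes. S100a8 was at 32822.8 RPKM in PBS and 14381.8 with exosomes, and S100a9 at 43059.1 and 13834.1, so they held more of the total in PBS. Without these 2 genes the shares of the ribosomal protein genes were 2.16% and 2.96%. The ratio of large to small subunit sums was 0.915 in PBS and 0.986 with exosomes.

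Near-identical copies were counted because reads that match several places can be assigned to the wrong gene or dropped, and how the authors' counting treated them is not stated. A copy was another locus of GENCODE M21 whose transcript matched at least 80% of the coding sequence at 95% identity or more. Of 84 genes searched, 78 had at least 1 copy, with a median of 5 and a total of 571, of which 556 were annotated as pseudogenes. Rpl21 had the most, with 57, followed by Rpl7a with 31 and Rpl29 with 27. Both genes of the core ribosome that were below the minimum were thus among the 3 with the most copies. Rps2 had 23 copies, and Rpl17 and Rps12 had 22 each. Of other genes with high ratios, Rpl35a had 14 copies, Rpl15 had 12 and Rpsa had 10, while Rpl36al and Rpl22 had 1 each. The part of read assignment in these ratios was not tested.

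**Figure D3:**
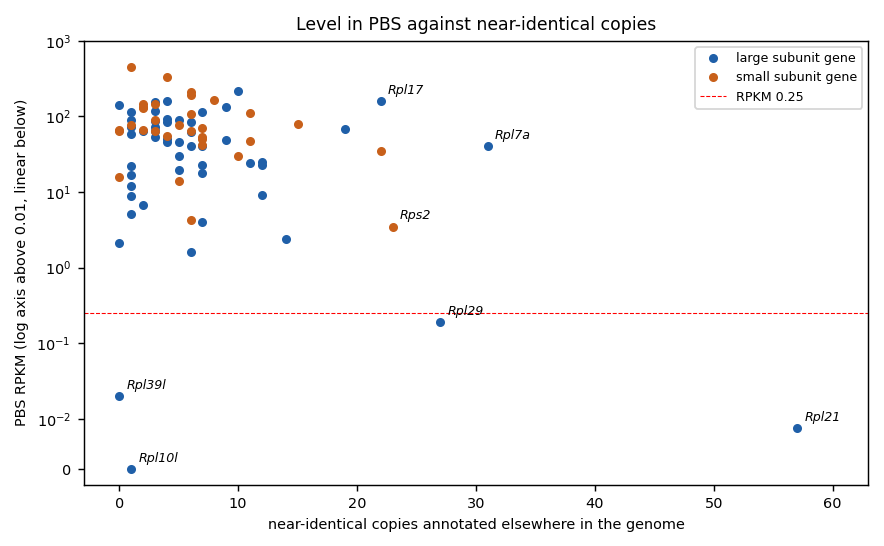
PBS RPKM (log axis above 0.01, linear below) against the number of near-identical copies annotated elsewhere, for the 84 ribosomal protein genes searched. The dashed line is the minimum of 0.25 RPKM. Rpl21 and Rpl29 lie below it at 57 and 27 copies, while Rpl7a and Rpl17, with 31 and 22, lie at 40.36 and 158.15 RPKM.

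In the plot of level against copies, the 18 genes with 0 or 1 copy had a median of 40.045 RPKM in PBS, the 22 genes with 2 to 4 copies 84.9, the 27 genes with 5 to 9 copies 49.8 and the 11 genes with 10 to 19 copies 29.7. The 6 genes with 20 copies or more had a median of 18.98. Rpl7a, at 40.36 and 84.94 RPKM with 31 copies, shows that a high count of copies did not always go with a low value. Across 80 genes the Spearman correlation of the number of copies with the log2 ratio was 0.04. Without the genes that had 5 or more copies, a split chosen after the values were seen, 24 large and 14 small subunit genes were left. Of these, 37.5% and 28.6% were at least 2-fold higher. Their medians were 0.70 and 0.68, and the difference between the subunits was 0.01. Among genes with few copies the subunits had nearly the same median, and the part of read assignment in the difference was not tested.

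For Rpl29 and Rpl21 a copy at another locus was measured far above the gene itself. The 30 coding bases below hold a mismatch between gene and copy, on the coding strand, with the differing base in capitals.
Rpl29: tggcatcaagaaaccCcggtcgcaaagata
Gm8210: tggcatcaagaaaccAcggtcgcaaagata
Rpl21: atgaCgaacacaaagggaaagaggagaggc
BC004004: atgaTgaacacaaagggaaagaggagaggc

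The first pair shows coding bases 57 to 86 and the second coding bases 1 to 30, each of 480. Gm8210 is a processed pseudogene at chr1:43189156-43189638 on the plus strand and matched Rpl29, at chr9:106429454-106431568, at 99.4% with 3 mismatches over the 480 bases. It was at 10.68 RPKM in PBS and 17.21 with exosomes, where Rpl29 was at 0.19 and 0.23. BC004004, annotated as protein coding at chr17:29268788-29314065, matched Rpl21 at 98.5% with 7 mismatches. It was at 7.89 and 13.24 RPKM, where Rpl21 was at 0.00817 and 0.06. Values of these genes are therefore uncertain, and which locus the reads came from was not tested. Most other copies were at 0: of 467 copies whose name was a listed feature, 49 were above 0 in either sample.

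Some ribosomal proteins have names that do not follow the rule. Gnb2l1, the older name of Rack1, a scaffold protein on the small subunit, went from 47.16 to 93.56 RPKM, a log2 ratio of 0.99. Fau, which encodes a small subunit protein fused to a ubiquitin-like protein, was at 465.71 RPKM in PBS and 375.43 with exosomes, a log2 ratio of -0.31. Fau was above every gene of the rule in PBS, and like Rps27 it was lower in the exosome sample.

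Genes of ribosome production outside the ribosome were mostly further apart between the samples than the ribosomal proteins themselves. Of 46 large subunit assembly factors compared, 38 were at least 2-fold higher (82.6%) and none was 2-fold lower, with a median log2 ratio of 1.53. The share at 2-fold was 31.5% over all genes and 50.2% over all genes between 1 and 5 RPKM. The highest were Noc2l, at 2.14 and 17.2 RPKM, Rrs1, at 0.57 and 4.37, and Pes1, at 2.45 and 17.03. Mrto4, Gnl3l and Sbds had the lowest ratios, and Sbds, which frees finished large subunits for use, was at 19.53 and 20.96 RPKM. Of 52 small subunit assembly factors, 32 were at least 2-fold higher (61.5%) and none was at least 2-fold lower, with a median of 1.38. Pno1 went from 0.75 to 6.9 RPKM, Tbl3 from 0.52 to 4.18 and Nol11 from 0.91 to 5.66. Riok3, a kinase of late assembly, was at 55.2 and 45.63 RPKM, Ddx52 at 14.89 and 15.51 and Nat10 at 1.86 and 2.12.

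A list of 11 genes held core proteins of the small nucleolar particles that modify ribosomal RNA, and the associated factors Nufip1, Nolc1 and Tcof1. Of these genes, 10 were at least 2-fold higher (90.9%), with a median log2 ratio of 1.86. Fbl, the methyltransferase of these particles, went from 1.2 to 10.02 RPKM, Nufip1 from 0.34 to 2.01 and Nop58 from 1.45 to 7.39. The lowest of the list were Dkc1, at 1.11 and 2.16, Nop56, at 4.87 and 14.67, and Nhp2l1, at 6.82 and 22.25. Of 12 genes of RNA polymerase I and its factors, which make ribosomal RNA, 4 were at least 2-fold higher (33.3%) and 1 at least 2-fold lower, with a median of 0.54. Both values were close to those of all genes, 31.5% and 0.53. Rrn3, the initiation factor of that enzyme, went from 0.97 to 6.63 RPKM, Cd3eap from 0.47 to 3.08 and Polr1c from 1.79 to 5.7. Polr1a, its largest subunit, went the other way, from 17.75 to 7.07, while Ubtf was at 30.75 and 23.73 and Taf1d at 4.41 and 5.45.

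A list of 16 genes, most of them translation factors and all written down as likely carriers of the pyrimidine tract, had a median log2 ratio of 0.75 with 7 at least 2-fold higher (43.75%, against 31.5% of all genes). The tract itself was not searched for in this list. Its median above the band of like abundance was 0.36, against 0.64 for the small subunit. Eif3e, a subunit of an initiation factor, went from 3.6 to 14.99 RPKM, the splicing protein Hnrnpa1 from 15.24 to 50.11 and the histone chaperone Nap1l1 from 5.31 to 13.84. The 3 lowest ratios belonged to genes over 100 RPKM. These were Eef1a1, the elongation factor that delivers tRNA, at 485.39 and 496.41, Tpt1 at 444.44 and 459.88 and Eef2 at 136.02 and 149.32. As among the ribosomal proteins, the abundant genes of this list had the lower ratios.

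Of 24 regulators of ribosomal protein mRNA and of ribosome number, 5 were at least 2-fold higher (20.8%, against 31.5% of all genes) and 3 at least 2-fold lower (against 5.62% of all genes), with a median of 0.17. Larp1, which binds the pyrimidine tract, went from 3.07 to 10.03 RPKM, Rptor, a subunit of the mTOR complex, from 0.41 to 2.59 and Gabpa, a transcription factor, from 7.69 to 17.0. Eef2k, the kinase that halts elongation, went from 4.47 to 0.42 RPKM. Mxd1, which opposes Myc, went from 466.57 to 172.86, and Max, the partner of both, from 102.24 to 40.03. Myc itself, on the same list, was at 0.47 RPKM in PBS and 0.38 with exosomes. Of 8 proliferation genes compared, 2 were at least 2-fold higher (25%, against 31.5% of all genes), with a median of 0.71. Pcna went from 12.33 to 42.61 RPKM and Mcm2 from 0.69 to 1.6. Mki67 was at 5.62 RPKM in PBS and 3.91 with exosomes, and Ccnb1, Ccna2 and Rrm2 were below 1 RPKM in both.

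The ribosomal proteins of mitochondria, which belong to a separate ribosome, had higher ratios than the cytosolic ones. Of 75 compared, 55 were at least 2-fold higher (73.3%) and none 2-fold lower, beside the same 31.5% and 5.62% of all genes, with a median log2 ratio of 1.67. Mrpl52 went from 3.42 to 38.95 RPKM, Mrps5 from 0.43 to 4.31 and Mrps18b from 0.91 to 8.76. Mrps15 was at 7.51 and 6.79, Mrpl14 at 19.41 and 18.39 and Mrpl33 at 132.27 and 136.78.

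**Figure D4:**
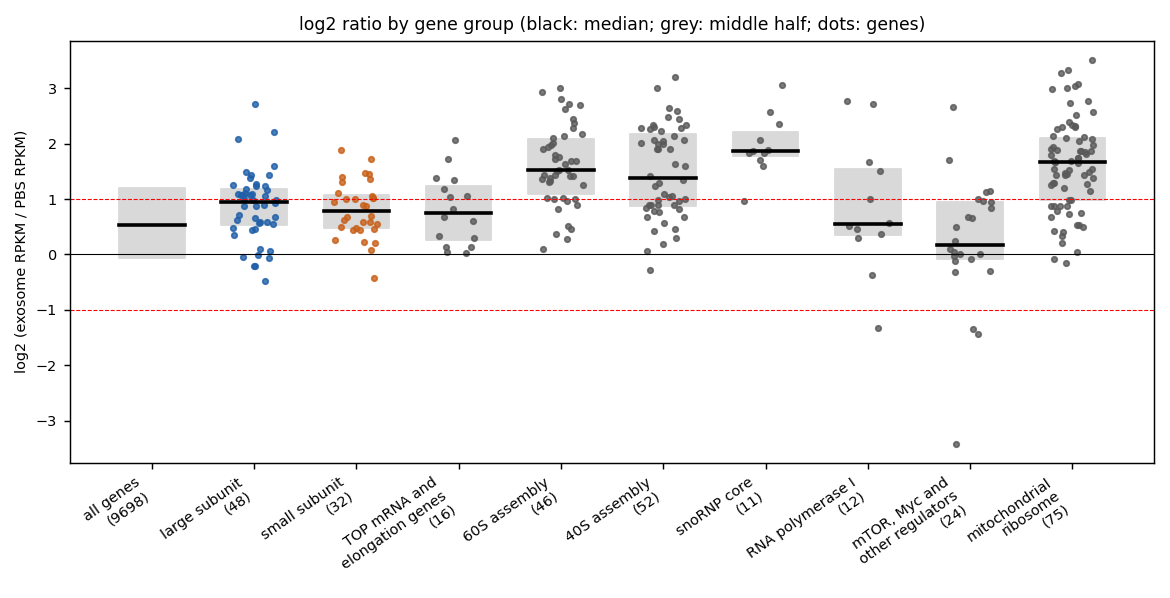
log2 ratio of exosome over PBS RPKM by gene group, 1 dot a gene, with the median (black line) and the interquartile range over genes (grey box); all 9698 genes compared are shown by median and box alone. Dashed lines mark 2-fold in each direction. The medians of both subunits, 0.95 and 0.79, lie above that of all genes, 0.53, and below those of the assembly factors, 1.53 and 1.38, and of the mitochondrial ribosome, 1.67.

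In the plot of gene groups, no large subunit assembly factor and no gene of the small nucleolar particle list lies below 0. The regulators are spread on both sides of 0. The groups also stood at different levels. The median PBS level was 2.23 RPKM for large and 2.13 for small subunit assembly factors and 2.04 for the mitochondrial ribosome, beside 49.3 for the large and 68.7 for the small subunit. Measured from the median of all genes in the same band of mean RPKM, the medians were 0.78 and 0.65 for the assembly factors and 0.87 for the mitochondrial ribosome, beside 0.76 and 0.64 for the subunits. On that scale the cytosolic subunits and their assembly factors differed little. The genes of the small nucleolar particle list stood higher, at 1.20. The genes of RNA polymerase I, at 0.05, and the regulators, at -0.07, stood lower.

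**Figure D5:**
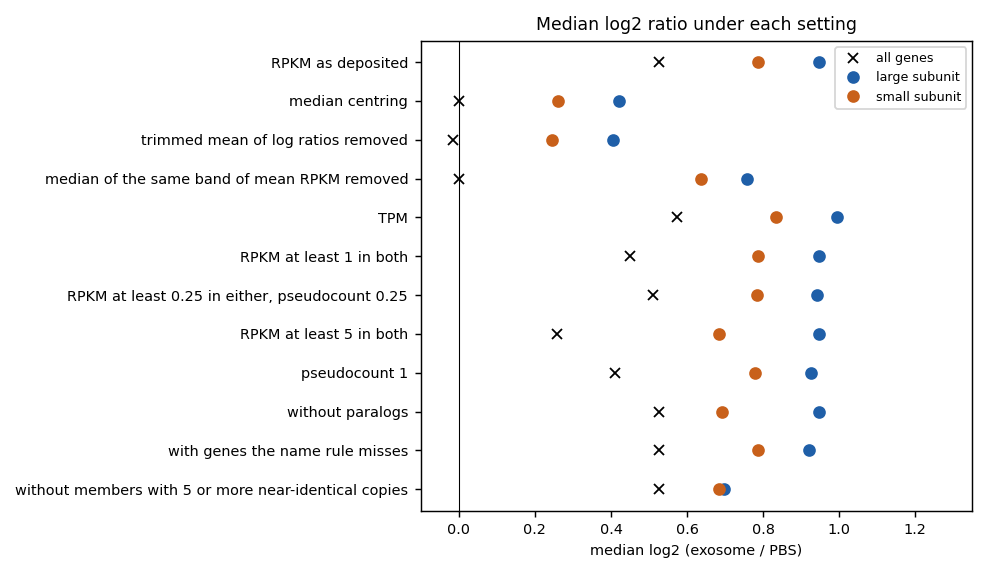
Median log2 ratio of the large subunit, the small subunit and all genes compared under each way of processing the values. The large subunit median is above the small subunit median in each, by 0.01 to 0.26, and both are above the median of all genes.

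The plot of medians by processing shows how far the medians moved. Centring on all genes and the TPM scale shift every gene by 1 constant, so they could not alter the order of the medians. The distance from 0 was smallest where the samples were centred on all genes, and the subunits were closest without the genes that have 5 or more copies.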

How the data were processed

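Total RNA of 2 cultures, with 1 mRNA library each, was sequenced by the authors, who trimmed reads by quality and used CLC Genomics Workbench. The authors deposited 1 RPKM value per feature and sample, and the labels name the build mm10. The gene annotation and the treatment of reads with several matches are not given in the sources used here. Commas in the values were removed.

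A gene was compared where both RPKM values reached 0.25, as log2 of exosome over PBS RPKM with no pseudocount, and called at a ratio of at least 2 or at most 0.5. With 1 library per group no test was made. Depth was estimated from values under 0.01 RPKM, many of which stand for 1 read, as the commonest total that RPKM and the longest GENCODE M21 transcript give. In PBS 193 of 994 features gave it, with exosomes 243 of 1159. Counting intervals (95%, exact Clopper-Pearson) used reads estimated with those lengths, which may not be those of the authors, and reads are not independent molecules. The calculations were tested on data simulated with the same transcript lengths, which cannot show whether the authors used those lengths. All 85 symbols matched GENCODE M21, which shares the build, and coding sequences were compared with blastn 2.17.0. Start sites were those of RefSeq for GRCm38.p6. Python 3.11.15, pandas 2.3.3 and scipy 1.17.1 were used.

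The genes and lists were chosen with earlier results of these data known. Within each subunit the genes with the 6 highest and 6 lowest ratios and the 5 highest levels were named, with a fixed set of genes of known roles, all paralog pairs, all genes under the minimum and, of each list, the 3 highest and 3 lowest ratios. Rpl7a, Rps12, Rpl26, Myc and the copies Gm8210 and BC004004 were named after their values or copy numbers were seen. A few genes that the rule names are counted in the groups but not reported here by name. Alternatives changed the centring, scaling, filter, pseudocount, fold limit and gene set.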

Additional observations from a re-analysis of the deposited data

How the results depend on the processing

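The large minus small difference in medians lay between 0.01 and 0.26 on the log2 scale. Centring on all genes, the trimmed mean and TPM move every gene by 1 constant and a minimum of 1 RPKM keeps the same genes, so these left it at 0.16 by construction. Centring on the median of all genes gave medians of 0.42 (large) and 0.26 (small), with 4 large, 2 small and in all 6 ribosomal protein genes at least 2-fold higher and 1 at least 2-fold lower. Removing a trimmed mean of log ratios gave 0.41 and 0.24, with 4, 2 and 6 higher and 1 lower. Of all genes 16.5% were then at least 2-fold higher and 13.6% at least 2-fold lower. Removing the median of the same band of mean RPKM left 13 large subunit genes and 21 genes in all higher, and 1 lower. On the scale centred on the median 16.8% of all genes were at least 2-fold higher, on that of the bands 14.0%, beside 7.5% and 26.25% of ribosomal protein genes. The shares of all genes at least 2-fold lower were 13.2% and 13.4% on these scales. Without genes that had 5 or more near-identical copies, chosen after seeing the data, 9 of 24 large, 4 of 14 small and in all 13 genes (34.2%, against 31.5% of all genes) were higher, a lower count from fewer genes. At a ratio of at least 1.5, 19 small subunit genes and 52 genes in all were higher, where 47.3% of all genes were. At a ratio of at least 4 the counts were 3 large, 0 small and 3 in all (3.75%, against 8.52% of all genes). Without S100a8 and S100a9 the large subunit held 1.03% of summed RPKM in PBS and 1.47% with exosomes, and the small subunit 1.13% and 1.49%. On the TPM scale the ratio of sums was 1.66 for the large and 1.54 for the small subunit. Of 20 named genes at least 2-fold higher, 6 stayed so with either centring on all genes, 16 within bands and 20 on the TPM scale. The sign of 11 of 46 named genes turned under at least 1 alternative. Each alternative changed a constant, a value per band, a limit or a gene set, and how far the results then moved depended on the values. No paired analysis was possible because each group holds 1 library, and no library could be left out. Depth bounds the counting error of a gene but not the variation between cultures, and the values of genes with near-identical copies depend on read assignment that is not stated.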

Other observations

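Of 258 features whose names end in -ps, 3 were above 0 in either sample. Rpl31-ps12 was at 1.47 RPKM in PBS and 1.15 with exosomes, Rpl34-ps1 at 0.51 and 0.55, and Rps6-ps4 at 0.75 and 0.61. The counting intervals of their 3 log2 ratios all held 0, and the estimated reads were between 11.9 and 37.1. No group could be examined for a library that stands apart, since each held 1 library.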
